A study of Mus musculus with 9 samples.

Results

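Adipogenic, osteogenic, chondrogenic, tendon and myogenic lineage regulators were followed across mouse embryonic fibroblasts (MEFs) deficient for 1 of 2 pairs of histone methyltransferases (KMT) acting on lysine 9 of histone H3 (H3K9). The members are 10 transcription factor genes taken by name: Pparg, Cebpa, Cebpb, Cebpd, Runx1, Runx2, Sox9, Sp7, Myod1 and Scx. All 10 were found by Ensembl gene identifier among the 47937 genes of the count table. Of these 10, 8 passed the filter on low counts and were tested with 15540 genes in all. The other 2, Sp7 and Myod1, never exceeded a floor of 3 counts in a library.

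Total RNA was sequenced from 9 libraries, 3 for each of 3 genotypes. WT cells are Eset1cKO MEFs (E1c), a single-cell clone that carries a tamoxifen-inducible conditional allele of Eset1 and was selected for high Cre activity. S1S2 cells are deficient for Suv39h1 and Suv39h2, and G9Gl cells are deficient for G9a and Glp, encoded by Ehmt2 and Ehmt1. Both mutants were made in the WT line by CRISPR/Cas9, so all 3 genotypes share the conditional Eset1 allele, and the labels name no tamoxifen treatment. Each mutant is 1 clone, picked because the target proteins were absent on western blots, and the replicates are taken as cultures of that clone. After the disruption, an inducible Cre construct was put back into cells that were then kept under puromycin, and whether this covers the WT libraries was not stated. Genotype and clone therefore cannot be told apart in any comparison.

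Mesenchymal precursors take on fat, bone, cartilage, tendon or muscle fates under a small set of transcription factors. In fat cell formation, Cebpb and Cebpd act early and switch on Pparg and Cebpa, which then sustain each other and the genes of lipid storage. Runx2 and its target Sp7 direct bone formation, Sox9 directs cartilage, Scx directs tendon, and Myod1 can convert fibroblasts into muscle cells.

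Libraries held between 21319778 and 32157623 counts, and 3 counts corresponded to between 0.0922 and 0.141 CPM, the counts scaled to library total and TMM factor. Among the targeted genes, Suv39h1 RNA fell by 1.36 on the log2 scale in S1S2, and Ehmt2 and Ehmt1 fell by 1.20 and 1.04 in G9Gl. Suv39h2 RNA was 1.63-fold higher in S1S2, under the fold limit for a call, so its RNA level does not check the label. All 10 fibroblast markers were detected. Their summed level was between 9864 and 11365 CPM in WT, between 7401 and 7468 in S1S2 and between 7794 and 8653 in G9Gl, and 6 of 10 fell in S1S2 with none called higher. In G9Gl 3 fell and 1 rose, Thy1, from 4.98 to 38.3 CPM. Pdgfra fell in both mutants, and Vim was at 1457 CPM in WT, 2398 in S1S2 and 1250 in G9Gl, not called. Markers of other cell types summed to at most 7.01 CPM for leukocytes, 2.35 for endothelium, 5.59 for epithelium and 0.587 for pluripotent cells. The leukocyte markers Adgre1 and Tyrobp and the pluripotency markers Pou5f1 and Zfp42 had no count in any library. Endothelial and epithelial sums were at most 0.193 and 0.548 CPM in WT, and between 1.55 and 1.75 and between 4.70 and 5.59 CPM in S1S2, where Kdr and Krt8 gave most of the signal. In G9Gl they were between 0.790 and 2.35 and between 4.21 and 5.38 CPM, with Cdh5 and Krt14 as the main genes. The part of these shifts in the results that follow was not tested. In bulk RNA, fewer cells that express a gene and less RNA per cell cannot be told apart.

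A gene was called when its Benjamini-Hochberg adjusted p in edgeR's quasi-likelihood test, over all 15540 genes, was at most 0.01 and its fold change at least 2. By this rule 1 of the 8 tested members was called in each comparison. Cebpa fell in S1S2, where 9% of all tested genes were called against WT, with 4.66% of all tested genes higher and 4.34% lower. Cebpa also fell in G9Gl, where 10.2% of tested genes were called, 6.77% higher and 3.4% lower. Scx was called higher in G9Gl than in S1S2, a comparison in which 13.1% of tested genes were called, 7.97% higher and 5.08% lower. A single call among 8 genes is close to these shares. Cebpa reached the filter on low counts only through its WT libraries, so its being tested already required a difference, and the count of tested members called is a description. Libraries did not overlap for 3 members between S1S2 and WT, for 3 between G9Gl and WT and for 5 between the mutants, against 56%, 52.8% and 60.8% of all tested genes. The median absolute log2 fold change of the members was 0.18 in S1S2 and 0.25 in G9Gl, against 0.25 and 0.22 over all tested genes. Both mutant comparisons use the same WT libraries.

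**Figure D1:**
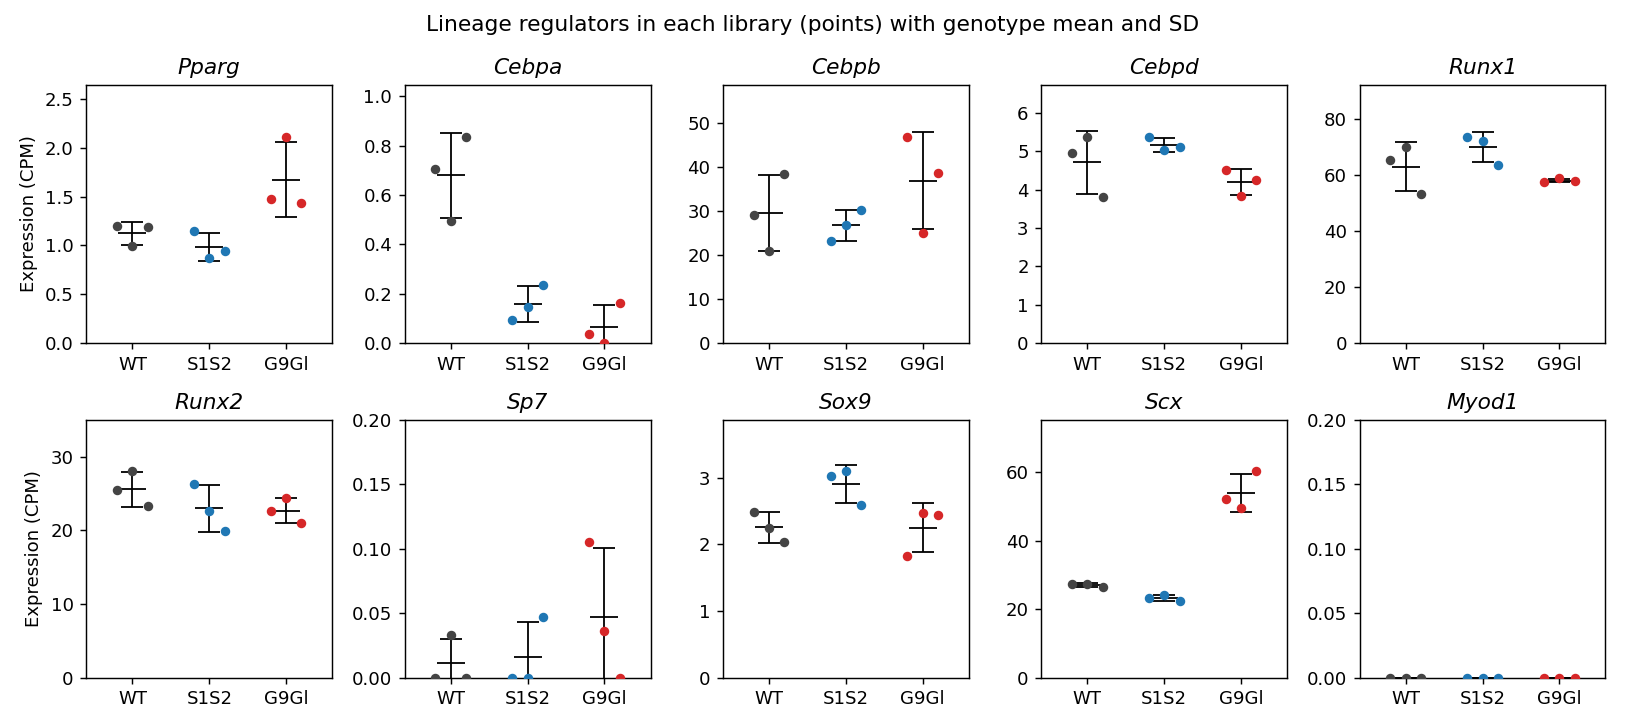
Expression of each of the 10 lineage regulators in CPM (vertical axis, from 0, with its own scale in each panel) in the 3 libraries of WT, S1S2 and G9Gl (points), with the mean and SD of each genotype. Cebpa lies between 0.496 and 0.837 CPM in WT and at or under 0.235 CPM in all mutant libraries, Scx lies at or above 49.5 CPM in G9Gl and at or under 27.5 CPM elsewhere, and Myod1 is at 0 throughout.

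Level was compared between genes as CPM per kilobase of merged exons. In WT the highest was Cebpb with 19.6 ± 5.78 (SD, n = 3), followed by Scx with 13.5 ± 0.279. Cebpb libraries ranged down to 13.9 and Scx libraries reached 13.7, so the leading pair barely separated. Runx1 with 5.22 ± 0.726 and Runx2 with 2.90 ± 0.266 followed, then Cebpd with 1.26 ± 0.219. The lowest tested members were Sox9 with 0.545 ± 0.0558, Pparg with 0.382 ± 0.0400 and Cebpa with 0.258 ± 0.0655. No neighbours in this order overlapped between libraries in WT or S1S2. In G9Gl, Scx with 26.9 ± 2.79 stood beside Cebpb with 24.5 ± 7.34, and Pparg with 0.567 ± 0.130 beside Sox9 with 0.544 ± 0.0891, and the libraries of both pairs overlapped. Among all tested genes, mean length-scaled level over the 9 libraries placed Cebpb at percentile 84.0, Scx at 80.7, Runx1 at 52.1, Runx2 at 38.1 and Cebpa at 3.40.

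**Figure D2:**
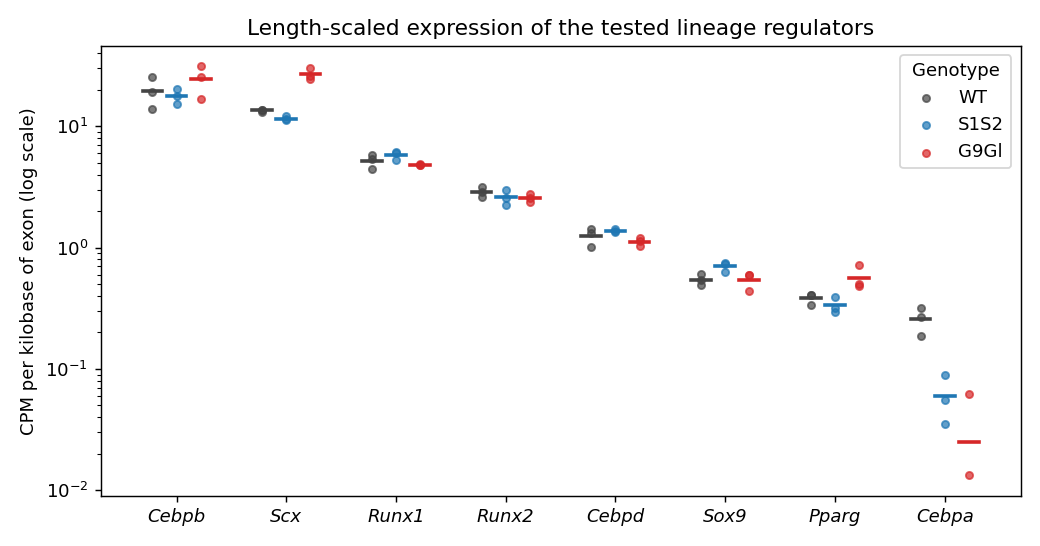
Expression per kilobase of merged exons (vertical axis, log scale, CPM per kilobase) of the 8 tested members, ordered by WT mean, in the libraries of WT, S1S2 and G9Gl (points) with genotype means (bars). Cebpb and Scx lead in all genotypes and Cebpa is lowest, with 1 G9Gl library at 0 counts that a log axis cannot show.

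Cebpa encodes C/EBPalpha, a bZIP factor that holds fat cells in their differentiated state. The gene (ENSMUSG00000034957) is protein-coding, has no intron and lies on the plus strand at chr7:35119293-35121928 (GRCm38). Cebpa is shown with its paralog Cebpb because the first was called in both mutants and the second in neither. The sequences are the 250 bases before the RefSeq start on the plus strand (GRCm38.p6), at chr7:35119043-35119292 for Cebpa and chr2:167688665-167688914 for Cebpb. Capitals mark matches on either strand to the TATA box (TATAAA), the GC box (GGGCGG), the E-box (CANNTG), the RUNX motif (AACCACA) or the CCAAT box, and neighbouring matches can overlap.
Cebpa: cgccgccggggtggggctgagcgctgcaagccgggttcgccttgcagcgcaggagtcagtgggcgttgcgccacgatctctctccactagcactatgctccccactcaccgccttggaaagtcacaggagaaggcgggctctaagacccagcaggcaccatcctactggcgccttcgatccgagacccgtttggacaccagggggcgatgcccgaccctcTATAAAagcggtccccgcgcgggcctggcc
Cebpb: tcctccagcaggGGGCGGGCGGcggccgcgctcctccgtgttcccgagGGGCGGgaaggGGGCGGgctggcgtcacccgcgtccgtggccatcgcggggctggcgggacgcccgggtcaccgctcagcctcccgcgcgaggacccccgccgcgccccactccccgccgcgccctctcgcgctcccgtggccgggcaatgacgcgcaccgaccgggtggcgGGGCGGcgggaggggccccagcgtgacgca
The Cebpa sequence holds a single match, TATAAA 30 bases before the start, a match found in 12.4% of all 32851 windows of this length. The Cebpb sequence holds no TATAAA and 5 matches to GGGCGG, which occurs in 32.7% of windows. Over the same 250 bases, Cebpa had 22 CpG, more than 85.2% of windows, and Cebpb had 41, more than 98.9%, against a median of 6. These matches describe the letters only.

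Cebpa was low in WT and lower in both mutants. The WT libraries held 0.707, 0.496 and 0.837 CPM, from 23, 15 and 26 counts. The S1S2 libraries held 0.0919, 0.146 and 0.235 CPM, from 2, 4 and 5 counts, and the G9Gl libraries 0.0351, 0 and 0.163 CPM, from 1, 0 and 5 counts. Every mutant library lay below every WT library, whereas the libraries of the mutants overlapped each other. Cebpa fell by 2.09 on the log2 scale in S1S2 (SE 0.33, adjusted p = 0.00263) and by 3.23 in G9Gl (SE 0.54, adjusted p = 0.000167). These p-values are a description, since the gene passed the filter through WT alone, and the fold size rests on a few reads per mutant library. The SE come from log2 CPM with a prior count of 2, not from the fit, and this prior pulls such low counts together. Leaving out each library gave fitted values between -4.94 and -2.70 in G9Gl. Without G9Gl replicate 3 the G9Gl value was -4.94, and the call in S1S2 was lost without WT replicate 3 (adjusted p = 0.0105), S1S2 replicate 1 (adjusted p = 0.0177) or S1S2 replicate 2 (adjusted p = 0.0169) and with DESeq2 (adjusted p = 0.0106). G9Gl and S1S2 differed by -1.13 (SE 0.57, adjusted p = 0.256), and by -2.85 (adjusted p = 0.0403) without G9Gl replicate 3.

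The genes next to Cebpa did not share its call. Cebpg, which encodes another C/EBP family member and starts 62.7 kb away, was at 106 ± 7.85 CPM in WT, 83.8 ± 14.0 in S1S2 and 94.3 ± 9.34 in G9Gl, with log2 fold changes of -0.34 and -0.17. Gpatch1, 199 kb away on the other side, gave 0.03 and -0.22. Within 500 kb of Cebpa 12 genes were tested. Kctd15 and Rhpn2 were called in S1S2 and Kctd15 in G9Gl. The antisense gene Gm45091 overlaps 1.94% of the Cebpa exon and had at most 3 counts in any library.

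Pparg, the nuclear receptor at the centre of fat cell formation, lies at chr6:115360951-115490399 on the plus strand (ENSMUSG00000000440). Its level was 1.20, 0.991 and 1.19 CPM in WT, 1.15, 0.874 and 0.940 CPM in S1S2 and 1.47, 2.12 and 1.44 CPM in G9Gl. All G9Gl libraries lay above all WT and S1S2 libraries, and the WT and S1S2 libraries overlapped. The log2 difference from WT was 0.56 (SE 0.19, adjusted p = 0.0485) in G9Gl and -0.20 (SE 0.14, adjusted p = 0.540) in S1S2, and neither was called. Between the mutants it was 0.76 (SE 0.21, adjusted p = 0.0129). Pparg and Cebpa, which sustain each other in fat cells, thus had differences of opposite sign in G9Gl, of which Cebpa alone was called. RefSeq gives Pparg 3 starts, and the 250 bases before each hold 82.4%, 63.6% and 40.8% GC and 38, 12 and 2 CpG. Counts per gene do not separate them.

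Cebpb and Cebpd, the early C/EBP factors, differed in how tightly their replicates lay. Cebpb (ENSMUSG00000056501, chr2:167688915-167690418, plus strand) was at 29.1, 21.0 and 38.4 CPM in WT, 23.1, 26.8 and 30.3 CPM in S1S2 and 46.9, 25.1 and 38.5 CPM in G9Gl. The libraries of all genotypes overlapped, with a coefficient of variation of 29.5% in WT, 13.5% in S1S2 and 30.0% in G9Gl. The log2 difference from WT was -0.14 (SE 0.28, adjusted p = 0.575) in S1S2, which turned to 0.09 without WT replicate 3, and 0.32 (SE 0.37, adjusted p = 0.179) in G9Gl. Cebpd (ENSMUSG00000071637, chr16:15887286-15891031, plus strand) was at 4.95, 5.39 and 3.80 CPM in WT, 5.37, 5.03 and 5.12 CPM in S1S2 and 4.52, 3.84 and 4.24 CPM in G9Gl. Its differences from WT of 0.13 (adjusted p = 0.450) and -0.16 (adjusted p = 0.356) were within the WT range. Part of each gene is shared with a gene on the opposite strand, Tmem189 over 20.7% of Cebpb exon bases and Spidr over 15.0% of Cebpd exon bases. The library kit was stranded, but whether counting used strand was not stated. Neither Tmem189 nor Spidr was called in either mutant.

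Runx2, which directs osteoblast formation, and Runx1, its paralog best known in blood formation, were not called in any comparison. Runx2 (ENSMUSG00000039153) lies at chr17:44495987-44814797 and Runx1 (ENSMUSG00000022952) at chr16:92601466-92826149, both on the minus strand. Their RefSeq windows share a run of 22 bases that no other window holds, shown because it carries a pair of matches to AACCACA, the core of the RUNX binding motif, in capitals.
Runx1, chr16:92826030-92826051, minus strand: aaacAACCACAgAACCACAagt
Runx2, chr17:44814588-44814609, minus strand: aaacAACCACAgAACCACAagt
Counting the start base as 1, the run begins at base 24 from the distal Runx1 start and at base 19 from the Runx2 start. These windows hold 300 bases, 250 before the start and 50 after it. AACCACA occurs in 5.27% of all 300-base windows and at least 2 matches in 0.204%. A match does not show that a factor binds.

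Runx2 was at 25.4, 28.0 and 23.3 CPM in WT, 26.2, 22.7 and 20.0 CPM in S1S2 and 22.7, 24.4 and 20.9 CPM in G9Gl, and the libraries of all genotypes overlapped. Its log2 difference from WT was -0.16 (SE 0.14, adjusted p = 0.177) in S1S2 and -0.17 (SE 0.10, adjusted p = 0.127) in G9Gl. Runx1 was at 65.3, 70.0 and 53.1 CPM in WT, 73.6, 72.2 and 63.6 CPM in S1S2 and 57.3, 58.7 and 57.8 CPM in G9Gl. G9Gl lay below S1S2 in every library, by 0.27 on the log2 scale (SE 0.07, adjusted p = 0.00835), which met the limit on p and not that on fold. The limit on p was missed without S1S2 replicate 1 (adjusted p = 0.0441), S1S2 replicate 2 (0.0410), G9Gl replicate 1 (0.0223), G9Gl replicate 2 (0.0183) or G9Gl replicate 3 (0.0279). Against WT, Runx1 differed by 0.15 (adjusted p = 0.118) in S1S2 and -0.12 (adjusted p = 0.248) in G9Gl. Genes of chromosome 16, which carries Runx1 and Cebpd, had a median log2 difference of -0.20 in G9Gl, and with chromosome medians removed Runx1 stood at 0.08 and Cebpd at 0.03 in G9Gl, and Runx1 differed by -0.18 between the mutants. Cbfb, the common partner of RUNX factors, was at 131 CPM in WT, 143 in S1S2 and 115 in G9Gl and was not called in either mutant.

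Sp7, a zinc finger factor that acts after Runx2 in bone formation (chr15:102356606-102367182, minus strand), had 0, 1 and 0 counts in WT, 0, 0 and 1 in S1S2 and 3, 1 and 0 in G9Gl. No genotype exceeded the floor of 3 counts per library, so no fold is given. Myod1, the muscle determination factor (chr7:46376474-46379099, plus strand), had 0 counts in all 9 libraries, which allows a level of up to between 0.0922 and 0.141 CPM by library. For both genes a difference between genotypes was not detectable at this depth.

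Sox9, the master factor of cartilage (ENSMUSG00000000567, chr11:112782224-112787760, plus strand), was at 2.49, 2.25 and 2.03 CPM in WT, 3.03, 3.10 and 2.58 CPM in S1S2 and 1.82, 2.48 and 2.45 CPM in G9Gl. Every S1S2 library lay above every WT and G9Gl library, and the G9Gl and WT libraries overlapped. The log2 difference was 0.37 (SE 0.12, adjusted p = 0.0892) in S1S2 and -0.00 (SE 0.16, adjusted p = 0.988) in G9Gl, with the sign of the latter depending on the scaling used. G9Gl against S1S2 gave -0.37 (SE 0.16, adjusted p = 0.0838), and none of the 3 was called. Sox5 and Sox6, the partners of Sox9 in cartilage, did not pass the filter on low counts. Sox5 had 8, 6 and 9 counts in the S1S2 libraries and at most 1 count in any WT or G9Gl library, at least 3.50-fold higher in S1S2 than the floor in WT, without a test.

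**Figure D3:**
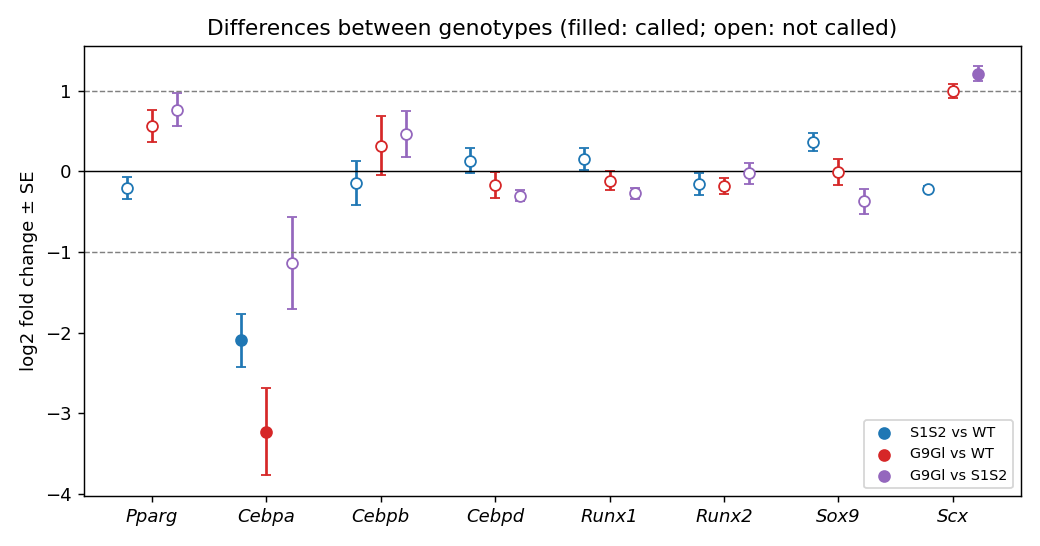
Fitted log2 fold change (vertical axis) of the 8 tested members for each mutant against WT and for G9Gl against S1S2. Error bars are the SE of replicate log2 CPM, filled points mark called genes and dashed lines a fold change of 2. Only Cebpa against WT in both mutants and Scx between the mutants are filled, and Scx in G9Gl against WT sits at the dashed line with 1.00.

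Scx encodes scleraxis, the bHLH factor of tendon progenitors, and was the only tested member called between the mutants. It was at 27.4, 27.5 and 26.5 CPM in WT, 23.2, 24.2 and 22.4 CPM in S1S2 and 52.3, 49.5 and 60.3 CPM in G9Gl. The 3 genotypes did not overlap, with S1S2 lowest and G9Gl highest. G9Gl exceeded S1S2 by 1.21 on the log2 scale, or 2.32-fold (SE 0.09, adjusted p = 1.22e-10). Against WT, G9Gl was 1.99-fold higher (log2 1.00, SE 0.09, adjusted p = 1.39e-09), just under the fold limit of 2. The call against WT was gained without WT replicate 1 (log2 1.00), WT replicate 2 (1.00), G9Gl replicate 1 (1.02) or G9Gl replicate 2 (1.05), and with DESeq2 (1.00). S1S2 differed from WT by -0.22 (SE 0.04, adjusted p = 0.0190), not called.

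Scx (ENSMUSG00000034161, chr15:76457452-76459458, plus strand) lies inside Bop1, a ribosome biogenesis gene on the opposite strand, and overlaps none of its exons. Bop1 was at 129 ± 15.9 CPM in WT, 135 ± 6.88 in S1S2 and 189 ± 5.30 in G9Gl, a log2 difference from WT of 0.07 (adjusted p = 0.421) and 0.55 (adjusted p = 2.36e-06). Its level moved in the same direction as Scx in G9Gl, and its part in the Scx value was not tested. If strand was not used in counting, unspliced Bop1 reads across Scx would be counted with Scx. Mroh1 on the other side gave 0.02 and 0.16. Within 500 kb of Scx 44 genes were tested, of which 1 was called against WT in S1S2 (Oplah) and 1 in G9Gl (Kifc2).

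The partners and targets of the members were taken as 8 lists with 143 genes, the members themselves not counted. Of these 143 genes, 96 exceeded the floor in a library and 75 were tested. In S1S2 9 of 75 were called, 3 higher and 6 lower, or 12.0% against 9% of all tested genes. In G9Gl 18 of 75 were called, 10 higher and 8 lower, or 24.0% against 10.2%. Between the mutants 17 of 75 were called, 12 higher and 5 lower in G9Gl, or 22.7% against 13.1%. Of the tested genes, 6 passed the filter through the libraries of 1 genotype alone (Fmod through WT, Dlx3 and Mef2c through S1S2, and Col11a1, Myf6 and Tnnc2 through G9Gl), so the counts and medians that include them are descriptions. The lists were chosen with earlier results of these data known.

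Around Pparg and Cebpa, 1 of 20 tested adipogenic regulators and partners was called in S1S2 and 3 of 20 in G9Gl, or 5% and 15% against 9% and 10.2% of all tested genes. The median log2 difference was -0.15 in both mutants, against -0.00 and -0.01 over all tested genes. Gata2, a repressor of Pparg in fat precursors, had 12.0 CPM in WT and fell to 5.79 in S1S2 and 4.63 in G9Gl (log2 -1.05 and -1.37). Ebf1, an early factor that promotes fat cell formation, was at 2.99 CPM in WT, 1.57 in S1S2 (log2 -0.91, not called) and rose to 13.0 in G9Gl (log2 2.12). The S1S2 difference of Ebf1 was called without WT replicate 3 (log2 -1.06) or S1S2 replicate 2 (-1.10). Egr2 fell by 1.61 on the log2 scale in G9Gl. Rxra, the partner of Pparg on DNA, differed from WT by -0.20 and -0.35 and was not called, and Ddit3, a C/EBP relative that blocks its partners, by -0.45 and 0.04, not called. In the adipocyte program 9 of 21 genes were tested and 1 was called in each mutant, or 11.1% of the tested genes of the list, in both cases Plin4, a lipid droplet protein that rose from 0.778 CPM in WT to 2.81 in S1S2 and 4.32 in G9Gl. Cd36, Cidec and Pck1, genes of mature fat cells, had no count in any library.

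Around Runx2, 2 of 10 tested osteogenic regulators were called in S1S2 and 1 in G9Gl, or 20% and 10% against 9% and 10.2% of all tested genes. Runx3, the third RUNX factor, was at 15.6 CPM in WT and 11.0 in S1S2 (log2 -0.51, not called) and fell to 6.07 in G9Gl (log2 -1.37), unlike Runx1 and Runx2. Dlx3, a homeobox factor of bone and skin, was at 9, 6 and 2 counts in WT (0.180 CPM) and 13, 22 and 13 counts in S1S2 (0.670 CPM, log2 1.88). It was tested only because S1S2 was high, and its call was lost without S1S2 replicate 2 (adjusted p = 0.0131). In G9Gl it was at 0.125 CPM. Runx1t1 was at 27.8 CPM in WT and 30.2 in G9Gl, and fell to 11.3 in S1S2 (log2 -1.31). Of the osteoblast program 6 of 14 genes were tested. Col1a2, a chain of type I collagen, was at 2394 CPM in WT and 2028 in G9Gl, and fell to 395 in S1S2 (log2 -2.60). The late bone genes Ibsp, Dmp1, Sost, Mepe and Mmp13 had no count in any library.

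**Figure D4:**
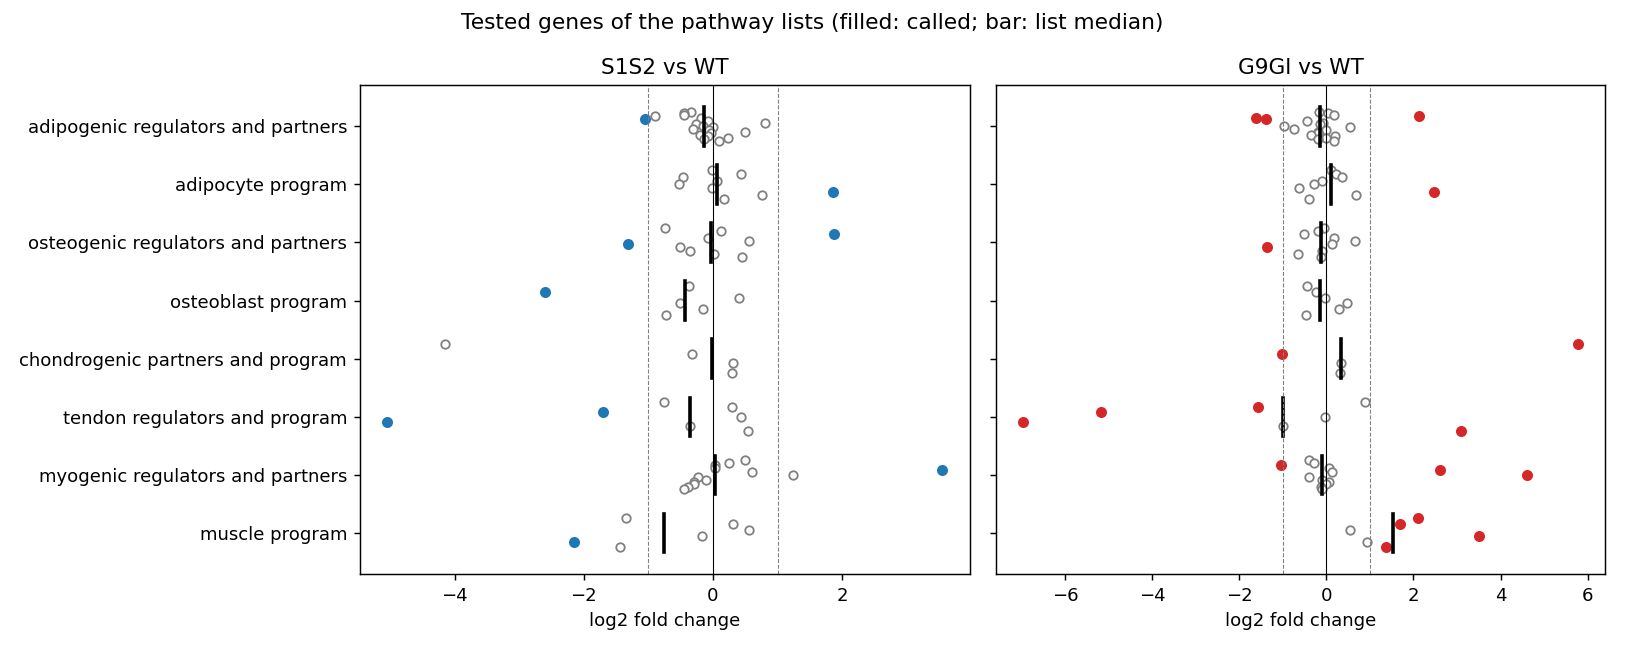
Fitted log2 fold change against WT (horizontal axis) of the 75 tested genes of the 8 pathway lists, for S1S2 (left) and G9Gl (right), with filled points for called genes, bars for list medians and dashed lines at a fold change of 2. The muscle program stands at a median of -0.75 in S1S2 and 1.53 in G9Gl, and fitted values far from 0 include genes at the floor in a genotype, whose size is not a measured fold.

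Around Sox9, 4 of 16 genes were tested. Col11a1, a cartilage collagen chain, was at 0.0749 CPM in WT and at 0 counts in all S1S2 libraries, and rose to 4.31 CPM in G9Gl. Col11a2, its partner chain, fell from 2.45 to 1.21 CPM in G9Gl (log2 -1.02), a call lost without WT replicate 1 (log2 -0.98) or G9Gl replicate 3 (-0.90).

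Around Scx, 7 of 11 tendon genes were tested, 2 were called in S1S2, both lower, and 4 in G9Gl, 1 higher and 3 lower. These are 28.6% and 57.1% of the tested list, against 9% and 10.2% of all tested genes, and Fmod, in both counts, was tested only through WT. The list median was -0.36 in S1S2 and -0.99 in G9Gl. Tnc, a matrix glycoprotein of tendon, rose from 57.0 CPM in WT to 488 in G9Gl (log2 3.10) and was at 83.1 in S1S2 (log2 0.55, not called). Dcn, a small collagen-binding proteoglycan, held 7.21 CPM in WT and fell to 2.18 in S1S2 and 0.198 in G9Gl (log2 -1.71 and -5.17). Fmod, fibromodulin, held 3.90, 3.11 and 3.19 CPM in WT and no more than 3 counts in any mutant library, at least 26.3-fold lower in S1S2 and 32.8-fold lower in G9Gl. Col12a1 fell from 137 to 46.1 CPM in G9Gl (log2 -1.57). Bgn, named after its values were seen, was at 199 CPM in WT, 118 in S1S2 and 368 in G9Gl, and was called against WT in neither mutant. Mkx, a homeobox partner of Scx in tendon, was at 6.12, 4.80 and 3.08 CPM in WT, S1S2 and G9Gl, a difference of -0.99 in G9Gl that was called without WT replicate 1 (-1.02), G9Gl replicate 1 (-1.05) or G9Gl replicate 2 (-1.06) and with all 9 libraries was called with no composition factor (-1.02) but not with the TMM factors used throughout. The defining tendon genes Tnmd, Thbs4 and Kera had no count in any library.

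Around Myod1, 13 of 18 myogenic regulators and partners were tested. Myf5 and Myog, the other muscle determination factors of its family, had at most 3 counts and 1 count in any library. Myf6, the remaining member of that family, had at most 2 counts in any WT or S1S2 library and 21, 18 and 15 counts in G9Gl, at least 6.50-fold higher than in WT. It was tested only through its G9Gl libraries. Mef2c, a cofactor of the Myod1 family, had 2, 1 and 3 counts in WT and rose to at least 8.25-fold this floor in S1S2 and 4.29-fold in G9Gl. The E proteins Tcf3 and Tcf12, which pair with Myod1 and Scx on DNA, differed from WT by -0.39 and -0.30 in S1S2 and by -0.13 and -0.01 in G9Gl, and were not called. Of the Id proteins, which sequester E proteins, Id3 fell in G9Gl from 22.7 to 11.1 CPM (log2 -1.03), a call lost without WT replicate 2 (-0.997) or G9Gl replicate 1 (-0.891), and Id1 and Id2 were not called against WT in either mutant.

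Genes of the muscle program were measured although Myod1 was at 0 throughout. Of 22 genes 6 were tested, and G9Gl was called higher than WT for 4 of them, lower for none, and higher than S1S2 for 5. Of these, Tnnc2 was tested only because its G9Gl libraries were high, so the counts are a description. Over all tested genes the shares called higher were 6.77% against WT and 7.97% against S1S2. The list median was -0.75 in S1S2 against WT, 1.53 in G9Gl against WT and 2.94 between the mutants. Tnnc2, a fast skeletal troponin, was at 0.154, 0.165 and 0.0644 CPM in WT and at 1.54, 1.36 and 1.57 CPM in G9Gl (log2 3.50). Acta1, skeletal alpha-actin, was at 0.892, 0.595 and 0.580 CPM in WT and at 2.24, 3.23 and 3.43 CPM in G9Gl (log2 2.10). Des, the muscle intermediate filament desmin, was at 1.97, 2.45 and 2.67 CPM in WT and at 7.65, 7.21 and 7.93 CPM in G9Gl (log2 1.69). In each of these genes all G9Gl libraries lay above all WT and S1S2 libraries. Tnnt3, named after its values were seen as the remaining call, had a mean of 0.662 CPM in WT and 1.71 in G9Gl (log2 1.37). Tnni2, a fast troponin, was at 3.07, 3.96 and 1.90 CPM in WT, fell to 0.643, 0.619 and 0.752 CPM in S1S2 (log2 -2.15), and was at 4.31, 5.96 and 6.75 CPM in G9Gl (log2 0.93, not called). The Tnni2 difference in G9Gl was called without WT replicate 2 (1.19) or G9Gl replicate 1 (1.10). The S1S2 difference of Acta1 of -1.34 was not called (adjusted p = 0.0109), but was without WT replicate 3 (adjusted p = 0.00986), with no composition factor (adjusted p = 0.00886) or with no filter on low counts (adjusted p = 0.00171). Myh1, Myh8, Chrng, Mymk and Mymx, genes of formed or fusing muscle fibres, had no count in any library.

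**Figure D5:**
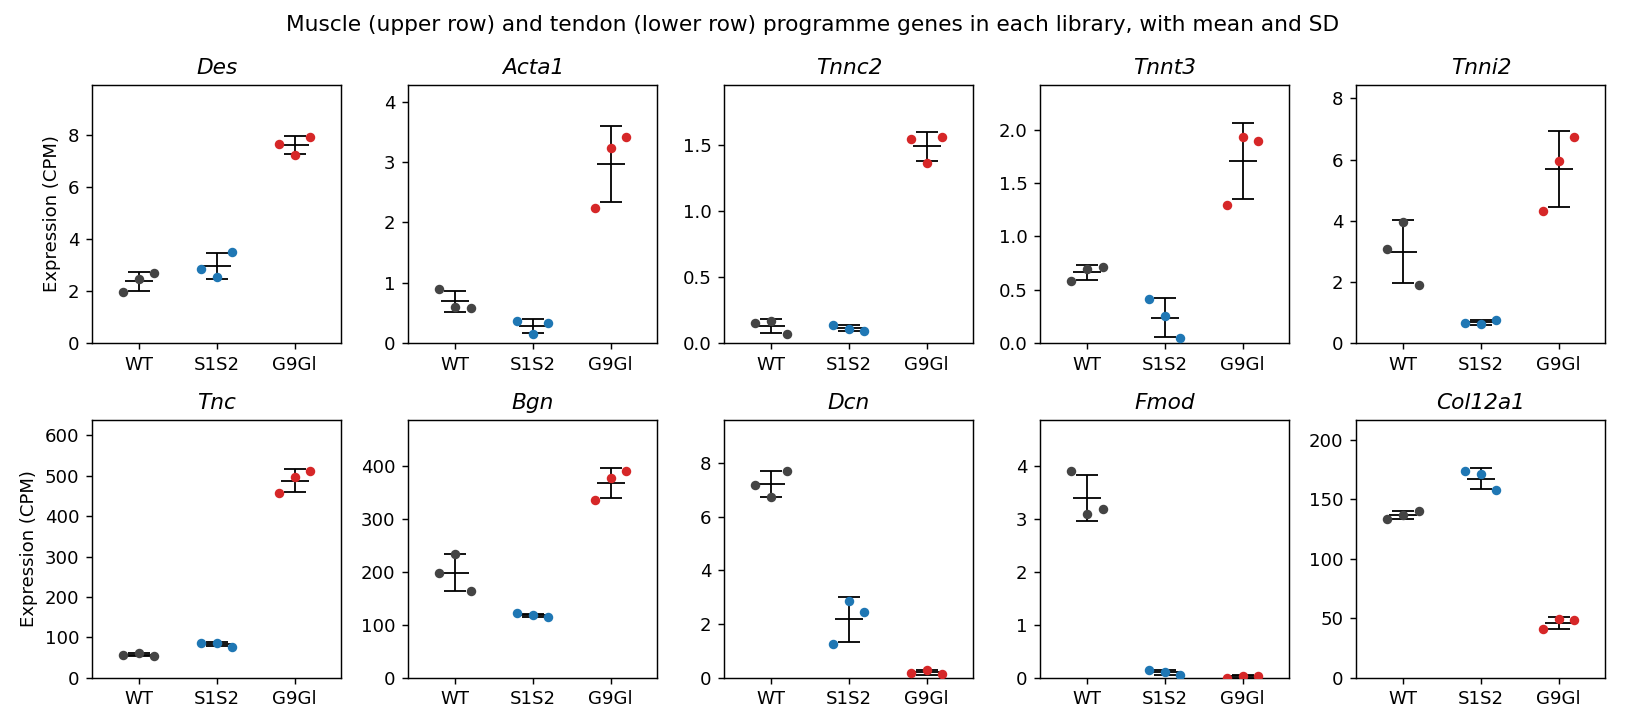
Expression in CPM (vertical axes, from 0, own scale per panel) of 5 muscle program genes (upper row) and 5 tendon program genes (lower row) in each library of WT, S1S2 and G9Gl (points), with mean and SD. The muscle genes are highest in G9Gl. Of the tendon genes, Tnc and Bgn are highest in G9Gl with means of 488 and 368 CPM, Dcn and Col12a1 are lowest there, and Fmod is at or under the floor in both mutants.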

How the data were processed

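RNA-seq was measured in 9 MEF libraries, 3 per genotype, grouped by the genotype in the labels. The deposited table holds raw read counts per Ensembl gene, which the authors made by trimming 75-base paired-end reads with cutadapt, aligning to GRCm38 with STAR 2.5.2b (per the labels) and counting with TEtranscripts. Reads of near-identical genes may be split among copies. The libraries were made with a stranded kit, but whether counting used strand was not stated. Identifiers were matched to GENCODE M21 for 47310 of 47937 genes, and no count was recorded for 21449.

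Counts were tested in R 4.3.3 with edgeR 4.0.16 (filterByExpr, TMM, glmQLFit, glmQLFTest) in a single fit of all 9 libraries by genotype. The common biological coefficient of variation was 5.36%. Adjusted p-values are Benjamini-Hochberg over 15540 genes. SE come from replicate log2 CPM with a prior count of 2, not from the fit. Folds against genotypes at or under 3 counts in every library are bounds computed against that floor. Floors cover counting error only. The scripts were tested on simulated data. Per the study's methods the replicates are biological, but since each mutant is a single clone, p-values measure only the spread between cultures.

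The members and lists were chosen with earlier results of these data known. Genes named from the lists are fixed partners (Cbfb, Rxra, Cebpg, Ddit3, Sox5, Sox6, Tcf3, Tcf12, Id1, Id2, Id3, Myf5, Myog, Mkx) and up to 3 called rises and 3 falls per list and mutant with a genotype mean of at least 0.5 CPM. Replicates differed by 2.57 to 23.5 chi-square per degree of freedom, so none was a duplicate. Alternatives were DESeq2 1.42.0, its size factors in edgeR, no composition factor, no filter, a mean count of at least 10, an adjusted p limit of 0.05 with no fold limit, only the genotypes compared, a replicate block, each library left out, and corrections for GC content and length and for chromosome medians. Promoter windows from RefSeq (GRCm38.p6) were found for Pparg, Cebpa, Cebpb, Runx1 and Runx2.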

Additional observations from a re-analysis of the deposited data

Results flagged for a closer look

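The log2 difference of Scx between G9Gl and S1S2 was 1.21, by a direct contrast of the mutants in the fit of all libraries. G9Gl lay above WT and S1S2 below it in 3 of 3 libraries each.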

How the results depend on the processing

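In S1S2 the count of 1 called member became 0 with a mean count of at least 10 and with DESeq2, and 2 with the adjusted p limit at 0.05 and no fold limit. In G9Gl it became 2 with DESeq2 size factors and with DESeq2, 0 with a mean count of at least 10, and 3 at the looser limit, and between the mutants it became 3 at that limit. A mean count of at least 10 removes Cebpa from the test. Leaving out each library gave between 0 and 1 members in S1S2 and between 1 and 2 in G9Gl. Of the pathway lists 15 genes were called in S1S2 without filter, and 45, 46 and 55 at the looser limit in S1S2, in G9Gl and between the mutants, as were 7599, 7138 and 8288 of all genes. Among values with a test, signs turned for uncalled ones alone: Sox9 in G9Gl with DESeq2 size factors (0.0023) and DESeq2 (0.0012), and, with a library left out, Cebpb (-0.34 to 0.086), Cebpd (-0.0024 to 0.24), Id3 (-0.032 to 0.12) and Tnnc2 (-0.48 to 0.042) in S1S2, Sox9 (-0.076 to 0.12), Ddit3 (-0.15 to 0.22) and Tcf12 (-0.055 to 0.055) in G9Gl, and Runx2 (-0.11 to 0.081) between the mutants. Without a test, signs of uncalled values also turned with the GC content and length correction for Id3 in S1S2 (to -0.067), Runx1t1 (to -0.084) and Ddit3 (to -0.29) in G9Gl and Cebpg between the mutants (to -0.068), and with chromosome medians removed for Cbfb in S1S2 (to -0.032) and Runx1 and Cebpd in G9Gl. The cause was not tested. With the replicate number as a block, 1 member was called in each comparison, and the block changed no call of a member. The numbers do not pair the samples: deviations of same-numbered libraries correlated between -0.069 and 0.12, and 3 of 9 libraries correlated best with their own number. Cebpa, Pparg, Sp7 and Myod1 had the fewest counts of the members in every library, and how far depth limits each member was not compared.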
